A study of Mus musculus with 8 samples.

Results

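The comparison described here is the glucose response of C2C12 myotubes depleted of Baf60c. Knockdown cells kept for 12 h at 10 mM glucose (2 arrays) were set against knockdown cells kept for 12 h at 1 mM (2 arrays), which are 4 of the 8 arrays of the series. C2C12 is a single clonal line of mouse myoblasts, the mononuclear precursors of muscle fibres, which fuse into multinucleated myotubes in culture. Before differentiation, the myoblasts received a retrovirus with an shRNA against Baf60c or, for the other 4 arrays, with a scrambled control shRNA (siScramble), so cells of every group carried a retrovirus and an shRNA. The control myotubes were kept at the same glucose concentrations for the same time, 2 arrays each, and the series design describes the 2 samples of a group as independent biological replicates. Genes entered through probe sets that the platform annotation assigns to exactly 1 gene, with the brightest probe set standing for its gene, and 13308 of 22180 genes passed the filter on low signal.

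Glucose enters muscle cells through transporters, is phosphorylated by hexokinase and is then burned, stored as glycogen or diverted into amino acid, nucleotide and sugar-chain synthesis. The transcription factor MondoA senses glucose 6-phosphate, and Txnip is its best known target. Cells short of glucose or amino acids, or with misfolded protein in the endoplasmic reticulum (ER), activate the integrated stress response and the unfolded protein response, in which ATF4, CHOP, XBP1 and ATF6 drive sets of target genes. Baf60c (gene symbol Smarcd3) is a subunit of BAF chromatin remodelling complexes that works with MyoD in the myogenic programme and has been linked to glycolytic muscle and to the mTOR inhibitor gene Deptor.

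Values below are the authors' log2 expression values. Changes are the value at 10 mM minus that at 1 mM on the log2 scale, each with its SE after the ± sign as limma estimates it (n = 2 per group), and a gene rose, fell or was called only if its Benjamini-Hochberg adjusted p over all 13308 genes was under 0.05. Replicates correlated across genes at r = 0.987 in knockdown cells at 1 mM and at 0.990 at 10 mM (genes are not independent replicates). The median SE of a change was 0.173. The arrays measure pooled RNA of whole cultures, so fewer cells of a type and less RNA per cell cannot be told apart. Each concentration was applied to separate samples, so a lower value at 10 mM cannot be told apart from a higher value at 1 mM. The probe set shared by Chpf2 and Smarcd3, the only reading of the knockdown target, was at 3.01 and 2.77 in knockdown cells at 1 mM and at 3.90 and 4.49 at 10 mM, against 5.62 and 5.40 and then 6.27 and 6.09 in control cells. It was below control in every knockdown array and rose with glucose within the knockdown cells (1.31 ± 0.22, limma adjusted p = 0.00442), so the cells compared differ in this signal as well as in glucose. The share of Smarcd3 in it was not resolved. The mean of this probe set in knockdown cells at 1 mM was under 3, where signal above background was not shown. The size of its rise is therefore not firmly measured.

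In knockdown cells 3342 genes were called, 25.1% of those tested, of which 1936 rose (14.5%) and 1406 fell (10.6%). The median change over all tested genes was 0.03, that of the genes that rose 0.98 and that of the genes that fell -0.86. At least 2-fold changes numbered 932 upwards and 517 downwards, and at least 8-fold changes 19 and 20. The split between rises and falls turned when each array was centred on its median over the tested genes (1612 higher and 1826 lower), and leaving out a 10 mM knockdown array gave 1903 called genes (replicate 1) or 2068 (replicate 2). With 2 arrays per group, the glucose groups did not overlap in 4628 genes that were higher at 10 mM (34.8% of those tested) and in 3913 that were lower (29.4%), so the absence of overlap alone is common here. A group mean under 3, where signal above background was not shown, occurred in 385 of the called genes.

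Txnip, which binds thioredoxin and restrains glucose uptake, had the largest rise. It read 3.55 and 4.24 in knockdown cells at 1 mM and 10.36 and 10.51 at 10 mM, a 93.1-fold rise (6.54 ± 0.24, adjusted p = 3.97e-05). The groups were far apart on every array, and control cells went from 4.17 and 3.79 to 9.97 and 9.77. Its paralog Arrdc4, which shares the arrestin fold, read 2.64 and 2.39 and then 3.18 and 3.18, so it rose (0.67 ± 0.18, adjusted p = 0.0337), with its 1 mM arrays under 3. Klf10, a zinc-finger gene induced by TGF-beta and glucose, rose from 7.04 and 7.06 to 7.63 and 7.56. The glucose-sensing factors themselves moved the other way or were not called. Mlx, the dimer partner of MondoA, fell by 0.53 ± 0.13, Mlxipl (ChREBP) fell by 0.86 ± 0.25 at dim signal, and Mlxip (MondoA) was at -0.41 ± 0.18 (adjusted p = 0.144). Of the 11 tested genes of this list 3 rose and 2 fell, but without any 1 of the knockdown arrays only 1 rose, and 1 fell or, without replicate 2 at 10 mM, 0. Any 1 control array left out also gave 1 fall. The calls of Arrdc4 and Klf10 were lost without any 1 knockdown array, that of Mlx without any except replicate 2 at 1 mM, and that of Mlxipl without replicate 2 at either concentration. Arrdc4 was also lost without either control array at 10 mM and with arrays centred, and Mlxipl without any 1 control array.

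**Figure D1:**
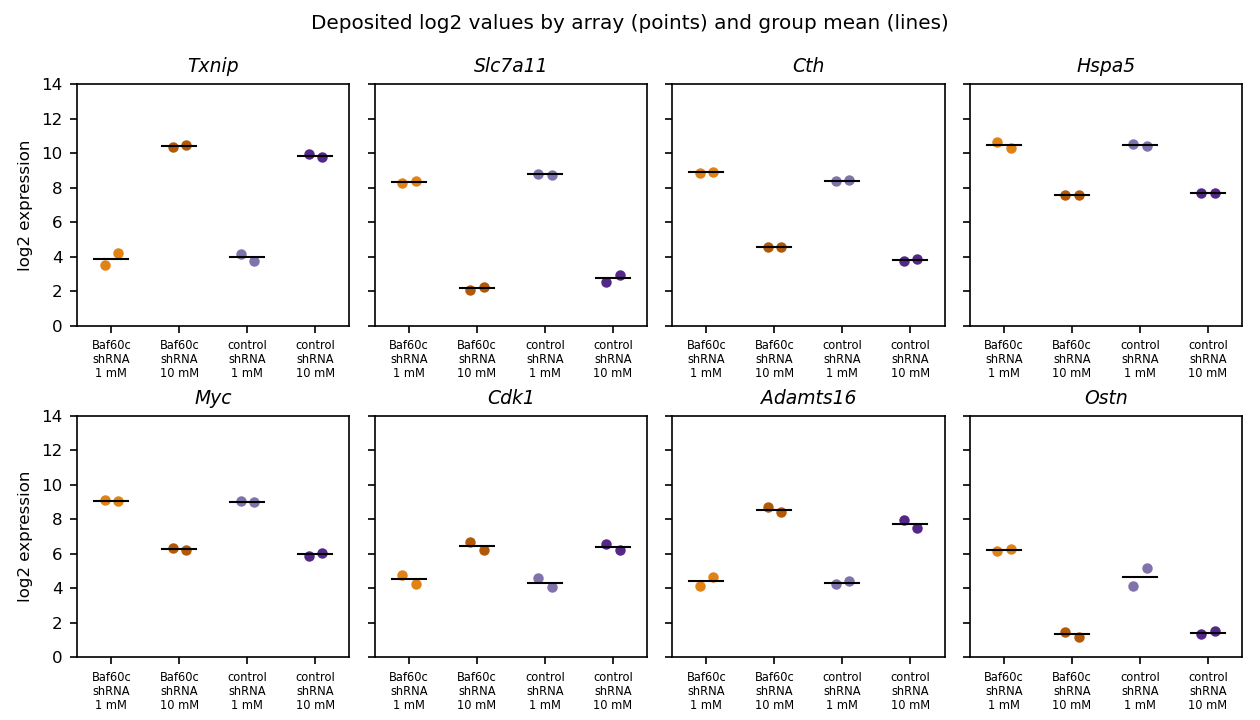
Log2 expression on each of the 8 arrays (points) and group means (lines) for 8 genes, by shRNA and glucose concentration. In knockdown cells Txnip went from 3.55 and 4.24 to 10.36 and 10.51 while Slc7a11, Cth, Hspa5, Myc and Ostn were lower at 10 mM and Cdk1 and Adamts16 higher, with no overlap between the glucose groups.

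Genes of cystine uptake and cysteine synthesis were among the largest falls. Slc7a11, the cystine importer, read 8.28 and 8.42 at 1 mM and 2.08 and 2.28 at 10 mM (-6.17 ± 0.16, adjusted p = 8.48e-06). Cth, which cleaves cystathionine to cysteine, went from 8.89 and 8.94 to 4.56 and 4.55 (-4.36 ± 0.12). For Slc7a11 the 10 mM arrays lay under 3, where signal above background was not shown, and a dim second probe set of the gene fell less (-0.90). Of the 18 genes of cystine use and glutathione synthesis, 7 fell and 1 rose, with a list median of -0.27. The rise, that of Gpx8, was lost without any 1 knockdown array, without either control array at 10 mM and with arrays centred. Gclc and Gclm, which encode the chains of glutamate-cysteine ligase, fell by 1.47 ± 0.16 and 1.63 ± 0.13, and Chac1, which degrades glutathione, fell by 2.73 ± 0.14. The NRF2 list, whose members answer to oxidants and electrophiles, held 12 falls and no rise among 19 genes (median -0.96). Lists can share members, and Slc7a11 is counted in this list, in the cystine list and among the amino acid transporters. Heme oxygenase Hmox1 went from 9.39 and 9.40 to 7.07 and 6.98, thioredoxin reductase Txnrd1 fell by 1.67 ± 0.14, sulfiredoxin Srxn1 by 1.85 ± 0.17 and Nqo1 by 0.72 ± 0.17, a call lost without any 1 knockdown array except replicate 1 at 1 mM. The transcript of NRF2 itself, Nfe2l2, read 10.19 and 10.17 and then 9.94 and 9.99 and was not called (-0.21 ± 0.14, adjusted p = 0.323).

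Regulators of the integrated stress response fell in 16 of 22 tested members and rose in none (median -1.38). Ddit3 (CHOP), a transcription factor of prolonged stress, read 10.23 and 10.32 at 1 mM and 7.06 and 6.81 at 10 mM (-3.34 ± 0.13). Trib3, the pseudokinase that binds AKT and ATF4, went from 8.66 and 8.43 to 4.33 and 4.13, and Atf3 from 8.56 and 8.42 to 5.44 and 5.27. The groups did not overlap in these 3 genes, as in 29.4% of all genes tested in this direction. Atf4, the central factor, fell less (-1.57 ± 0.24), as did Eif4ebp1, the translation repressor (-1.14 ± 0.13). Sesn2, which signals amino acid shortage to mTOR, fell by 2.87 ± 0.20 and the eIF2 phosphatase subunit gene Ppp1r15a by 2.85 ± 0.18. The stress hormone gene Fgf21 was not called (0.45 ± 0.27, adjusted p = 0.276), at 6.07 and 5.71 and then 6.41 and 6.28.

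Enzymes that build and load amino acids moved with these regulators. Of 16 genes of serine, glycine and folate metabolism 9 fell and 1 rose (median -0.81), and the rise was lost without either control array at 1 mM, either knockdown array at 1 mM or knockdown replicate 2 at 10 mM. The serine pathway genes Phgdh, Psat1 and Psph fell by 2.37 ± 0.20, 1.51 ± 0.18 and 2.08 ± 0.16. The mitochondrial folate genes Shmt2, Mthfd2 and Aldh1l2 fell by 2.64 ± 0.14, 2.67 ± 0.17 and 2.98 ± 0.16. Of 14 genes of asparagine, proline and glutamine synthesis 7 fell, among them Asns, Pck2 and the proline gene Aldh18a1 (-1.73 ± 0.13), and glutamine synthetase Glul rose, from 7.46 and 7.64 to 9.01 and 8.85. Asns, which makes asparagine, read 9.83 and 10.14 at 1 mM and 7.46 and 7.29 at 10 mM (-2.61 ± 0.16, adjusted p = 0.000137). Cytosolic aminoacyl-tRNA synthetases, which charge tRNAs for translation in the cytosol, fell in 14 of 19 members with no rise and no positive change (median -1.35). Wars fell by 2.44 ± 0.17, Iars by 1.94 ± 0.13 and Nars by 1.69 ± 0.12. The 16 mitochondrial synthetases had 5 falls at a median of -0.24, and 2 falls without knockdown replicate 1 at 1 mM or at 10 mM and 3 without replicate 2 at either. Among 18 amino acid transporters 9 fell and 3 rose. The leucine transporter chains Slc7a5 and Slc3a2 fell by 2.60 ± 0.17 and 2.24 ± 0.14 and the arginine transporter Slc7a1 by 2.73 ± 0.15, while the glutamate transporter Slc1a3 rose from 4.67 and 4.65 to 6.53 and 6.71.

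The promoters of Slc7a11 and Asns are shown because both genes fell and both windows hold the amino acid response motif, which ATF4 is known to bind. The windows run from 250 bases before to 50 after the RefSeq start on GRCm38.p6, chr3:50443564-50443863 on the minus strand for Slc7a11 and chr6:7693160-7693459 on the minus strand for Asns, and the capitals mark TGATGNAA on either strand.
Slc7a11: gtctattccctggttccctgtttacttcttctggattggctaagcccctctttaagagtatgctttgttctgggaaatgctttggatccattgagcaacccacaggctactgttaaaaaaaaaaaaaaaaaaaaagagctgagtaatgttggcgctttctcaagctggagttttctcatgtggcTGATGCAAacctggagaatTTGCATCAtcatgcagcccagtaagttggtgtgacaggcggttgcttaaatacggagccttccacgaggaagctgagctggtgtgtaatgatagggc
Asns: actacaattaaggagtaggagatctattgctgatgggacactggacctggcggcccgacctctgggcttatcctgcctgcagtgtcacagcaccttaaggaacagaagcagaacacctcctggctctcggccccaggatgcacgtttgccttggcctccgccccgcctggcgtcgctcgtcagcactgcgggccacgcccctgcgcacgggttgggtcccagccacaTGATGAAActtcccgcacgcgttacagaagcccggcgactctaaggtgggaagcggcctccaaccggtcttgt
In Slc7a11 the motif starts 66 bases before the start site and lies again, on the other strand, 47 bases before it, and in Asns it starts 23 bases before. RefSeq gives exactly 1 such window for 8357 of the tested genes, and 2.27% of them hold TGATGNAA. The share was 3.90% among 897 genes that fell and 1.62% among 1173 that rose. It was 5 of 17 windows of integrated stress regulators, 4 of 11 of cytosolic synthetases, 2 of 10 of amino acid transporters and 0 of 14 of serine and folate genes. A match is only these letters and does not show a factor there.

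Folding enzymes of the ER fell almost as a block. Of 21 tested genes 19 fell, Fkbp14 rose (0.50 ± 0.15), though not when any 1 array was left out, and the median was -1.47. The chaperone Hspa5 (BiP) read 10.65 and 10.32 in knockdown cells at 1 mM and 7.62 and 7.57 at 10 mM (-2.89 ± 0.15, adjusted p = 8.17e-05). Sdf2l1, a partner of BiP, went from 9.99 and 10.03 to 5.76 and 5.40 and Manf, a secreted stress factor, from 6.09 and 5.92 to 3.18 and 3.65. The chaperone gene Hsp90b1 went from 12.69 and 12.47 to 11.19 and 11.29. The groups did not overlap in these 4 genes, as in 29.4% of all genes in this direction. The list of ER-associated degradation and stress sensors held 12 falls among 22 genes and no rise (median -0.72). Here the sensor genes Ern1 and Atf6 fell by 1.56 ± 0.14 and 1.02 ± 0.13, Xbp1 by 1.20 ± 0.15 and Herpud1, which assembles the degradation machinery, by 2.28 ± 0.15. Enzymes that build N-linked sugar chains fell in 15 of 32 cases with 1 rise, Dpm1 (a call lost without knockdown replicate 1 at 1 mM or either replicate at 10 mM), at a median of -0.45, and among the falls were the transferase subunit genes Rpn1 (-1.11 ± 0.17) and Stt3a (-0.83 ± 0.14). Translocon and vesicle coat genes were nearer to the background, with 12 falls and 2 rises among 43 and a median of -0.21. That count was 7 without knockdown replicate 1 at 1 mM, 6 without replicate 1 at 10 mM and 7 without replicate 2 at 10 mM, and the rises numbered 0 without replicate 1 at 1 mM or replicate 2 at 10 mM and 1 without replicate 2 at 1 mM. The signal peptidase genes Sec11c and Spcs2 fell by 1.25 ± 0.18 and 1.10 ± 0.16, and the coat gene Copa was at 0.03 ± 0.12.

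The promoter of Hspa5 is shown for the ER stress motif, CCAAT followed 9 bases later by CCACG, to which ATF6 and NF-Y are known to bind (GRCm38.p6, chr2:34771840-34772139, plus strand, motif in capitals).
Hspa5: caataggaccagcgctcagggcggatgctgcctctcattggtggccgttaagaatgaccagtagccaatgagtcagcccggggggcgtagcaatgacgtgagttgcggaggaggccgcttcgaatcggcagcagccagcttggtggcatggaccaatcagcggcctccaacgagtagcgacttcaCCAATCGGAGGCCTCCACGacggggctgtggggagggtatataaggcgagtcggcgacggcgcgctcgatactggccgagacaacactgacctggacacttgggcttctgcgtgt
The motif starts 65 bases before the start site. Only 15 of the 8357 windows, 0.179%, hold it on either strand. Of these 15, 11 belonged to genes that fell, 1.23% of that class, and none of the 1173 windows of genes that rose held it. Among ER folding enzymes 8 of 17 windows did.

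Myc and genes of ribosome production fell. Myc, a transcription factor of growth, read 9.11 and 9.08 at 1 mM and 6.32 and 6.23 at 10 mM (-2.82 ± 0.13, adjusted p = 5.33e-05). In the Myc network, the repressors Mxd1, Mxd4 and Mxi1, which compete for the partner Max, rose by 0.64 ± 0.16, 1.00 ± 0.14 and 0.60 ± 0.14, and Max fell by 0.56 ± 0.14. Of these calls that of Mxd1 was lost without any 1 knockdown array, that of Mxi1 without any except replicate 2 at 1 mM and that of Max without any except replicate 1 at 1 mM. Another probe set of Mxi1 was not called (0.15 ± 0.23), and Mxi1 was not called with the mean of its probe sets. The list's 3 rises and 3 falls were 1 and 2 without knockdown replicate 1 at 1 mM, 1 and 1 without replicate 1 at 10 mM, 2 and 1 without replicate 2 at 10 mM, and 2 and 2 without replicate 2 at 1 mM. Of 40 nucleolar genes 39 fell and none rose, the 40th, Polr1c, was not called, and all 40 changes were negative (median -1.05). In a test against a 1.5-fold change 13 of the 40 fell. Clearly fewer than 39 were called with any 1 knockdown array left out, at list medians of -1.08 to -1.02. The median level of these genes was 7.71 and 7.81 at 1 mM and 6.86 and 6.89 at 10 mM. Gnl3 (nucleostemin) fell by 1.77 ± 0.17, the small nucleolar RNA protein genes Nop56 and Nop58 by 1.44 ± 0.14 and 1.53 ± 0.15, and the processome gene Heatr1 by 1.45 ± 0.13. Ribosomal proteins moved much less. Of 36 tested, 4 fell (median -0.18), and only 1 fell without knockdown replicate 1 at 1 mM or replicate 2 at 10 mM and 2 without replicate 2 at 1 mM or either control replicate at 1 mM. Among all tested genes 10.6% fell, near the share in this list. Rps6 went from 12.11 and 12.19 to 12.01 and 12.01 and was not called. Translation factors had 7 falls and no rise among 32 genes (median -0.31), led by Eif4ebp1 and Eif1a (-0.94 ± 0.13). The E-box CACGTG, a motif of Myc and of several other factors, was in 10.0% of all windows, 15.7% of those of genes that fell, 7.33% of those of genes that rose and 7 of 32 of nucleolar genes. A pair of exact CACGTG motifs 5 bases apart was in 0 of the 8357. Only this exact spelling was searched. The count therefore cannot tell whether carbohydrate response elements with other letters lie in these windows, and their presence was not tested.

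**Figure D2:**
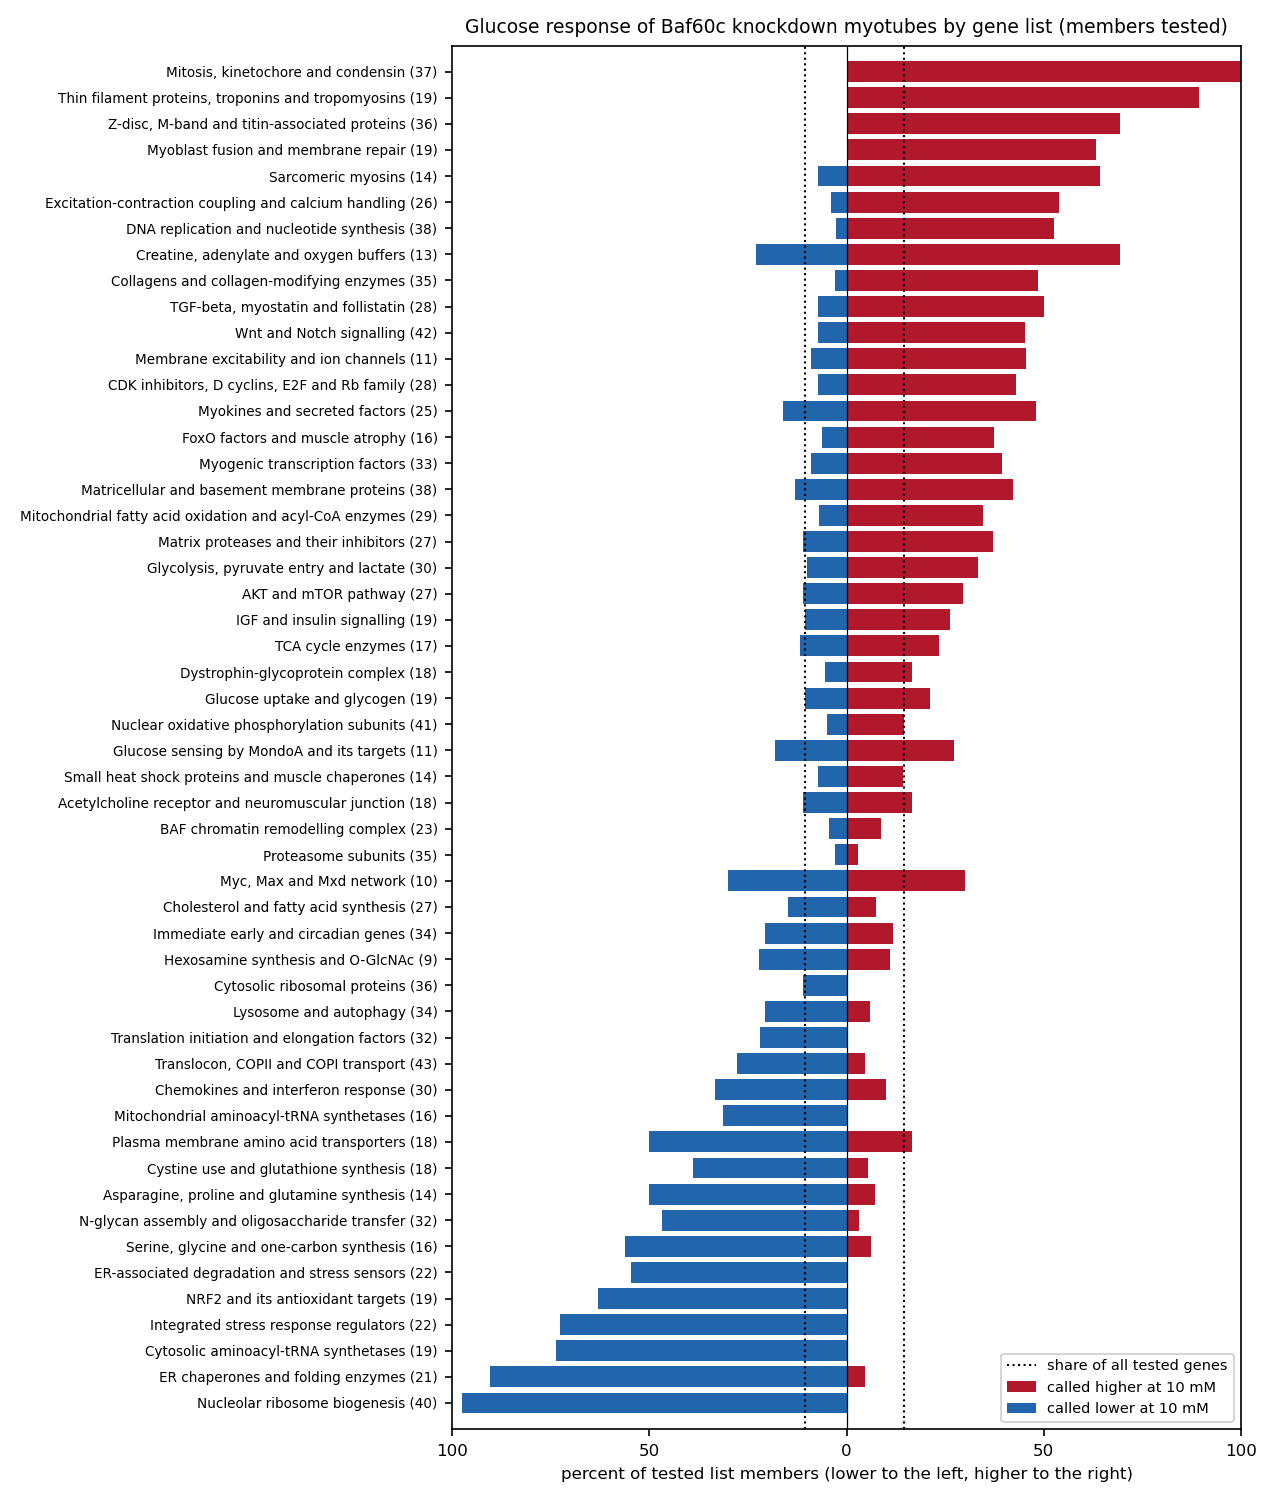
For each gene list, with the number of tested members in brackets, the percent of members called higher at 10 mM glucose (red, to the right) and lower (blue, to the left) in knockdown myotubes; dotted lines mark all tested genes, 14.5% higher and 10.6% lower. All 37 mitosis genes were higher and 39 of 40 nucleolar genes lower.

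Genes of cell division rose. All 37 tested genes of mitosis, the kinetochore and condensin rose (median 2.22), and 33 to 36 of them when a knockdown array was left out. The replicates at 1 mM differed in these genes, with a list median level of 4.55 in replicate 1 and 4.10 in replicate 2, against 6.61 and 6.25 at 10 mM, and the groups did not overlap in any of the 37, against 34.8% of all genes in this direction. The mitotic kinase gene Cdk1 read 4.80 and 4.26 and then 6.69 and 6.23 (1.93 ± 0.27, adjusted p = 0.00241). Mki67, the common marker of cycling cells, went from 5.72 and 4.83 to 8.19 and 7.78, and the mitotic kinesin gene Kif11 rose by 2.85 ± 0.25. Replication and nucleotide synthesis genes rose less uniformly. Of 38, 20 rose and 1 fell (median 0.81), with the ribonucleotide reductase genes Rrm1 and Rrm2 up by 1.40 ± 0.13 and 1.97 ± 0.15 and Tk1 by 1.79 ± 0.18. The sliding clamp gene Pcna was at 8.29 and 8.27 and then 8.26 and 8.15, and Dut, which clears dUTP, fell by 1.14 ± 0.17. Among 28 regulators of the cycle 12 rose and 2 fell, or 1 fell without any 1 knockdown array. E2f8 rose by 2.51 ± 0.24 and E2f2 by 2.27 ± 0.22, the inhibitor gene Cdkn2c by 1.80 ± 0.19 and Rb1 by 0.79 ± 0.13, while cyclin gene Ccnd2 fell by 1.80 ± 0.15. Another, dim probe set of Rb1 was not called (-0.01 ± 0.28), and Rb1 was not called with the mean of its probe sets. The exit inhibitor Cdkn1a read 10.56 and 10.66 and then 11.07 and 10.94 and was not called.

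The window of Cdk1 is shown for the cell cycle homology motif, TTTGAA or TTCGAA, which recruits the DREAM and MuvB complexes (GRCm38.p6, chr10:69352863-69353162, minus strand, motif in capitals).
Cdk1: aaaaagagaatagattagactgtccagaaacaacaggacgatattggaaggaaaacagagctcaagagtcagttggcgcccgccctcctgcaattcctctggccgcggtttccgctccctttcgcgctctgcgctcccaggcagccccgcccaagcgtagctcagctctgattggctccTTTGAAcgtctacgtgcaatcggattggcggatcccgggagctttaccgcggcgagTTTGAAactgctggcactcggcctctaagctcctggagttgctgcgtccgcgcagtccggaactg
The copies start 71 and 15 bases before the start site. The motif was in 24 of 29 windows of the mitosis list, in 13.6% of all windows, in 18.2% of those of genes that rose and in 12.8% of those of genes that fell. The motifs spelled out here can overlap by a few letters in a sequence, as CACGTG and CCACG do, and the paired E-box is made of CACGTG; matches were counted for each motif separately.

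Genes of glucose use included rises and falls. Glycolysis, pyruvate entry and lactate genes had 10 rises and 3 falls among 30 (median 0.38, 23 changes positive), and 6 rises without knockdown replicate 1 at 10 mM. The muscle isoforms Pfkm, Eno3 and Pgam2 rose by 1.80 ± 0.20, 1.15 ± 0.14 and 1.08 ± 0.15. Hexokinase Hk2 went from 8.86 and 8.89 to 8.15 and 7.95 and the lactate and pyruvate carrier Slc16a1 from 10.57 and 10.59 to 9.37 and 9.36, and both fell. Pdk4, the kinase that shuts pyruvate dehydrogenase, rose by 1.36 ± 0.20. Of 19 genes of glucose uptake and glycogen, 4 rose and 2 fell, and 2 rose without knockdown replicate 2 at 1 mM or either knockdown replicate at 10 mM. Over all tested genes 14.5% rose and 10.6% fell. Muscle glycogen phosphorylase Pygm went from 4.21 and 4.81 to 6.44 and 6.29, branching enzyme Gbe1 fell by 0.84 ± 0.14 and the glycogen-binding Stbd1 by 2.13 ± 0.20. The ubiquitous transporter gene Slc2a1 read 11.00 and 10.93 and then 10.69 and 10.59 without passing the test, and the insulin-responsive Slc2a4 was dim and uneven between replicates (2.09 and 3.72, then 2.39 and 2.01). In the hexosamine list, Oga, which removes O-GlcNAc, rose by 1.47 ± 0.12, and Gnpnat1 and Gfpt1, on the way to UDP-GlcNAc, fell by 1.45 ± 0.17 and 0.53 ± 0.15. The Gfpt1 call was lost without any 1 knockdown array.

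Most changes of mitochondrial genes were positive and not called. Positive changes numbered 24 of 29 in fatty acid oxidation, 34 of 41 in oxidative phosphorylation and 15 of 17 in the TCA cycle. The share of positive changes over all tested genes was not counted, and their median change was 0.03. Of all tested genes 14.5% rose, which is near the share of called rises in oxidative phosphorylation. Fatty acid oxidation and acyl-CoA genes had 10 rises and 2 falls among 29 (median 0.25), with 6 rises without either knockdown replicate at 10 mM. The carnitine transferase gene Cpt1a went from 6.96 and 7.02 to 8.68 and 8.53, and the thioesterase Acot2 from 12.13 and 12.05 to 8.19 and 8.27. Both shifts were larger than the gap between replicates, in opposite directions. Acox2, a peroxisomal oxidase, fell from 6.04 and 5.90 to the dim range (2.08 and 2.56). Oxidative phosphorylation subunits had 6 rises and 2 falls among 41 at a median of 0.27, and 1 to 2 rises when any knockdown array was left out, 2 without either control array at 1 mM, 3 without either at 10 mM and 2 when arrays were centred. Falls numbered 1 without knockdown replicate 1 at either concentration. Of 17 TCA cycle genes 4 rose and 2 fell, with pyruvate carboxylase Pcx down by 0.99 ± 0.19 (not called without knockdown replicate 1 at 10 mM) and Ogdh up by 0.99 ± 0.14, and 2 rose without replicate 2 at 1 mM or either replicate at 10 mM of the knockdown cells. With any 1 array left out 1 TCA gene fell, or 0 without knockdown replicate 1 at 10 mM. Cholesterol and fatty acid synthesis had 2 rises and 4 falls among 27, with 2 falls without knockdown replicate 1 at either concentration and 1 rise without replicate 2 at 1 mM or either replicate at 10 mM. For comparison, 14.5% of all tested genes rose and 10.6% fell. Mvd and the SREBP brake Insig1 fell by 1.24 ± 0.19 and 0.89 ± 0.14 while Fasn was not called (-0.37 ± 0.14). Creatine, adenylate and oxygen buffer genes had 9 rises and 3 falls among 13. Myoglobin Mb rose by 1.91 ± 0.24 and the creatine kinases Ckb and Ckm by 1.65 ± 0.16 and 1.11 ± 0.14, while the creatine transporter Slc6a8 fell by 0.76 ± 0.12.

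Structural muscle genes were higher at 10 mM in knockdown cells. The myosin heavy chain genes are described first. Embryonic Myh3 read 7.72 and 7.55 at 1 mM and 9.42 and 9.35 at 10 mM (1.75 ± 0.15, adjusted p = 0.000372), perinatal Myh8 2.19 and 2.41 and then 4.13 and 3.91, and fast Myh1 4.84 and 5.33 and then 6.96 and 7.24. Slow Myh7 (1.31 ± 0.14) and fast Myh4 (2.51 ± 0.34) rose from the dim range, as did Myh8. Another, dim probe set of Myh8 was not called (0.20 ± 0.38). Rises therefore covered developmental, slow and fast isoforms. Of 14 myosin genes 9 rose, and Myh7b, an ancient slow type myosin, fell from 2.78 and 2.86 to 2.06 and 2.43, all under 3, a fall lost without any 1 knockdown array except replicate 2 at 10 mM. Thin filament genes rose in 17 of 19 members (median 1.05), and in 10 without knockdown replicate 2 at 10 mM. Cardiac actin Actc1, the actin of young muscle, went from 6.26 and 5.82 to 7.96 and 7.95, skeletal actin Acta1 from 10.52 and 10.56 to 11.14 and 11.22, and nebulin Neb from 7.59 and 7.72 to 9.12 and 9.16. At the Z-disc and M-band 25 of 36 genes rose and none fell (median 1.14). The M-band gene Myom1 went from 3.16 and 3.02 to 5.33 and 5.42, the Z-disc scaffold genes Ldb3 and Pdlim3 rose by 2.00 ± 0.15 and 1.83 ± 0.13, the turnover adaptor gene Klhl41 by 2.47 ± 0.21 and desmin Des by 1.06 ± 0.13. Titin Ttn rose less (0.70 ± 0.16). The Ttn call was lost without knockdown replicate 1 at 1 mM or replicate 2 at 10 mM, and that of Acta1 without the latter.

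Genes that couple excitation to contraction rose in 14 of 26 cases and fell in 1 (median 0.57), with 8 rises without knockdown replicate 1 at 10 mM. Calsequestrin Casq1, the calcium store of fast fibres, went from 4.65 and 5.13 to 7.08 and 7.44, and the fast calcium pump Atp2a1 from 5.37 and 4.89 to 7.23 and 7.12. The slow and housekeeping pump Atp2a2 fell from 10.93 and 10.88 to 9.90 and 9.84, so the pump genes moved in opposite directions. The release channel Ryr1 rose by 0.49 ± 0.13 and the voltage sensor Cacna1s by 0.84 ± 0.17. The Ryr1 call was lost without any 1 knockdown array, with arrays centred and with the mean of its probe sets, and that of Cacna1s without knockdown replicate 1 at either concentration. Among 11 channel and pump genes 5 rose and 1 fell. The sodium channel relative Scn7a went from 4.74 and 4.53 to 7.85 and 8.01, the calcium-gated potassium channel Kcnn3 from 3.89 and 3.78 to 6.47 and 6.49, and the fall of Ank1 rests on 1 of its 2 probe sets, the other of which rose (1.19 ± 0.25), and was lost without knockdown replicate 1 at 1 mM or either replicate at 10 mM. At the neuromuscular junction 3 of 18 genes rose and 2 fell, or 1 without any 1 knockdown array. These 3 rises and 2 falls lie near the shares over all tested genes, of which 14.5% rose and 10.6% fell. The fetal receptor subunit Chrng rose (1.17 ± 0.17), Chrna1 read 9.85 and 9.82 and then 10.11 and 10.16 and was not called, and Musk was at -0.03 ± 0.13. Fusion and membrane repair genes rose in 12 of 19 members with no fall, including the fusogens Mymk (1.18 ± 0.15) and Mymx (1.58 ± 0.18) and the repair gene Trim72 (1.84 ± 0.16).

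Among 33 myogenic transcription factors 13 rose and 3 fell (median 0.45), a count of rises that was 7 and 8 without knockdown replicate 1 and 2 at 1 mM and 5 and 8 without them at 10 mM. The falls numbered 1 without replicate 1 and 2 without replicate 2 at either concentration. Myod1 went from 4.41 and 4.58 to 7.13 and 6.88 and Mef2c from 5.81 and 5.37 to 7.26 and 7.39. Myog, the factor of terminal differentiation, moved little in comparison (8.62 and 8.70, then 9.32 and 9.12, adjusted p = 0.0316), and Myf5, a factor of myoblasts, fell by 0.95 ± 0.25. Neither the Myog nor the Myf5 call was kept without any 1 knockdown array, and Myog was not called with arrays centred. The growth and atrophy arms were mixed. Igf1 rose from 3.23 and 3.81 to 6.54 and 6.40 and its binding protein Igfbp5 by 2.01 ± 0.17. Deptor, the mTOR inhibitor that has been tied to Baf60c, went from 7.55 and 7.83 to 8.91 and 9.0 (1.26 ± 0.17, adjusted p = 0.00192), and its other probe set rose by 1.64. The atrophy ligase genes Trim63 (MuRF1) and Fbxo32 (atrogin-1) rose by 1.47 ± 0.22 and 0.87 ± 0.14, Foxo1 was not called (0.23 ± 0.16), and Klf15, a glucocorticoid target, fell from 4.64 and 4.58 to 2.09 and 1.71, again under 3. Of 27 AKT and mTOR pathway genes 8 rose and 3 fell, with 5, 5 and 4 rises without replicate 1 at 1 mM, replicate 1 at 10 mM and replicate 2 at 10 mM of the knockdown cells, and 1 fall without either replicate at 1 mM.

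Secreted factors and matrix genes also changed. Musclin, Ostn, a peptide secreted by muscle, read 6.15 and 6.26 at 1 mM and 1.48 and 1.20 at 10 mM (-4.87 ± 0.31), with the 10 mM arrays under 3, where the size of the fall is not firmly measured. Of 25 myokine and growth factor genes 12 rose and 4 fell, and 7 rose without knockdown replicate 2 at 10 mM. Il15 and Apln rose by 1.66 ± 0.23 and 1.77 ± 0.30, and Vegfa and the EGF receptor ligand Ereg fell by 0.91 ± 0.16 and 1.97 ± 0.24. In the TGF-beta list 14 of 28 genes rose and 2 fell, or 1 with any 1 array left out. Inhbb, which encodes an activin subunit, rose by 2.44 ± 0.18 and the antagonist gene Fst by 1.17 ± 0.15, while the BMP antagonist Grem1 fell by 1.44 ± 0.15. Of 42 Wnt and Notch genes 19 rose and 3 fell (11 rises without knockdown replicate 1 at 10 mM), with the ligand gene Jag1 down by 2.32 ± 0.16 and Dkk2 up by 2.02 ± 0.15. Collagen genes rose in 17 of 35 cases (median 0.63), and Serpinh1, the collagen chaperone of the ER, was the 1 that fell (-0.65 ± 0.14), a call lost without knockdown replicate 1 at 1 mM or either replicate at 10 mM. Col12a1 went from 8.03 and 8.03 to 9.99 and 10.08. Thrombospondin Thbs1 rose from 9.26 and 9.51 to 12.12 and 12.12, and the protease gene Adamts16 from 4.14 and 4.67 to 8.71 and 8.43. Fibronectin Fn1 was not called (13.09 and 13.02, then 13.03 and 13.06). Chemokine and interferon genes fell in 10 of 30 cases and rose in 3, with 6 falls without knockdown replicate 2 at either concentration. Ccl2 fell by 1.85 ± 0.19 and Ifit1 by 1.88 ± 0.28, while the stromal chemokine Cxcl12 rose by 1.37 ± 0.13.

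Markers of myotubes, myoblasts and other cell types were also read. C2C12 is a single clonal line of myoblasts, so a marker of another cell type need not stand for such cells here. Of 13 myotube markers 12 rose, though 7 did without knockdown replicate 1 at 1 mM and 5 without replicate 2 at 10 mM, and their summed linear signal went from 6495 and 6905 to 11726 and 12419. Of 9 tested fibroblast markers of 12 listed, 7 rose (median 1.33), and the summed signal of the 11 measured went from 2424 and 2556 to 5202 and 4925. Dpt rose by 2.38 ± 0.17 and Pdgfra, which marks fibro-adipogenic cells, by 2.06 ± 0.28. Smooth muscle markers had 6 rises in 12 (3480 and 3476, then 6639 and 6507), but Myh11, the most specific of them, was dim at 3.28 and 2.46 and then 2.55 and 2.67. Markers of undifferentiated myoblasts had 4 rises and 2 falls in 12, Cxcr4 up by 2.41 ± 0.16 and Hmga2 down by 2.12 ± 0.14, with rises of 1 without replicate 1 at 1 mM and 2 without either replicate at 10 mM of the knockdown cells, 1 fall without any 1 knockdown array, and a summed signal of 1594 and 1713 and then 1727 and 1721. The defining macrophage and endothelial markers were near the floor. Of 11 macrophage markers 9 had a mean under 3, with Cd68 and Ptprc falling (neither without either knockdown array at 1 mM, 1 of them without either at 10 mM), and of 10 endothelial markers 9 did. The part of cell composition in the muscle, matrix and division results was not tested.

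The same contrast in control myotubes, measured on separate arrays, gave 3372 called genes (25.3%), 1761 higher (13.2%) and 1611 lower (12.1%). Of the 3342 genes called in knockdown cells, 2332 were called in the same direction in control cells and 6 in the opposite one. The difference between the responses was tested for each gene as an interaction in limma. No gene passed (0% of 13308, smallest adjusted p = 0.235), 1049 genes had an unadjusted p under 0.05 (7.88%), of which 647 had a more positive change in knockdown cells, and with a variance trend and robust fit 1 gene, Thbs1, did pass. The median half-width of the unadjusted 95% confidence interval of a difference was 0.574, so smaller differences were mostly not detectable with these arrays. Adjustment over 13308 genes asks for more, and differences well above this size did not pass either. Of the 1004 genes called in knockdown cells alone, 270 had a difference with an unadjusted p under 0.05.

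**Figure D3:**
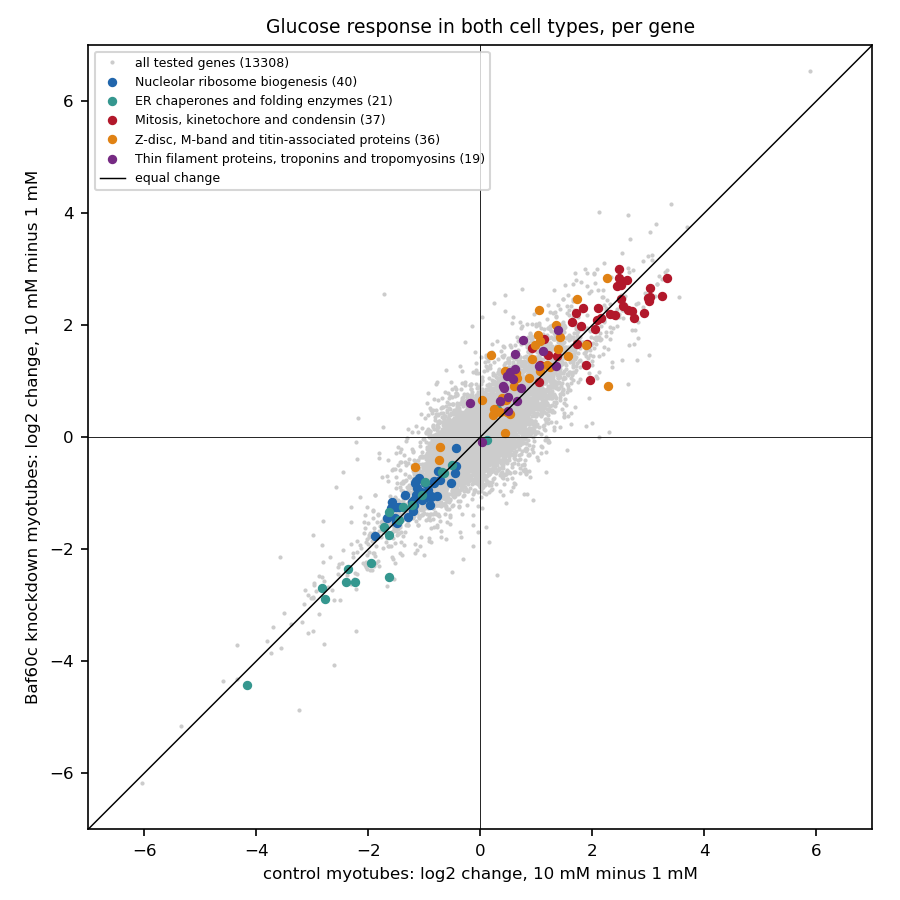
Log2 change from 1 mM to 10 mM glucose in control myotubes (x axis) and in Baf60c knockdown myotubes (y axis) for the 13308 tested genes, with 5 gene lists coloured and the line of equal change. Nucleolar, ER chaperone and mitosis genes lie along the line (median differences 0.06, 0.01 and -0.06), and thin filament and Z-disc genes lie mostly above it (0.45 and 0.32).

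The stress, ribosome and mitosis lists had like medians in both cells, -1.05 and -1.11 for nucleolar genes, -1.47 and -1.62 for ER folding enzymes, -1.38 and -1.18 for integrated stress regulators and 2.22 and 2.32 for mitosis, in knockdown and control cells in that order. Sarcomere lists had higher medians in knockdown cells. This was not limited to them, as the median difference was 0.47 for smooth muscle markers and 0.20 for glucose uptake and glycogen. Chemokine and interferon genes were at -0.22, and the median over all tested genes was 0.04. The thin filament list rose at a median of 1.05 in knockdown and 0.58 in control cells, with 17 and 10 genes called, and 7 of its 19 differences had an unadjusted p under 0.05, all positive. The Z-disc and M-band list stood at 1.14 and 0.64, with 9 positive and 1 negative such differences among 36. For 5 of 26 coupling genes the difference was positive at that p and for none negative. Myosins were mixed, with 5 positive and 2 negative among 14. Over all tested genes 7.88% of the differences had such a p, in either direction. None of the differences in these lists passed the adjusted threshold. Those of Myom1, Atp2a1 and Myh3 were 1.23 ± 0.23, 1.47 ± 0.32 and 0.94 ± 0.21 (limma adjusted p = 0.389, 0.417 and 0.417).

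Muscle genes were lower in knockdown cells at 1 mM. The median thin filament level was 6.90 and 7.07 in knockdown cells at 1 mM, 8.03 and 8.20 at 10 mM, and 7.76 and 8.04 in control cells at 1 mM and 9.04 and 9.09 at 10 mM. Knockdown cells at 10 mM therefore lay near control cells at 1 mM and below control cells at 10 mM. Myom1 read 5.33 and 5.42 in knockdown cells at 10 mM against 5.97 and 6.22 in control cells at 1 mM and 6.99 and 7.31 at 10 mM. For Z-disc genes the 4 pairs of medians were 5.23 and 5.44, 6.29 and 6.42, 6.10 and 6.26, and 6.97 and 7.04, in the same order. Coupling genes kept a gap, at 5.21 and 5.38, 6.62 and 6.79, 7.05 and 7.28, and 7.04 and 7.36. Means in knockdown cells were below those of control cells for 17 of 19 thin filament genes at 1 mM and 16 at 10 mM, and for 24 of 26 coupling genes at each concentration.

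**Figure D4:**
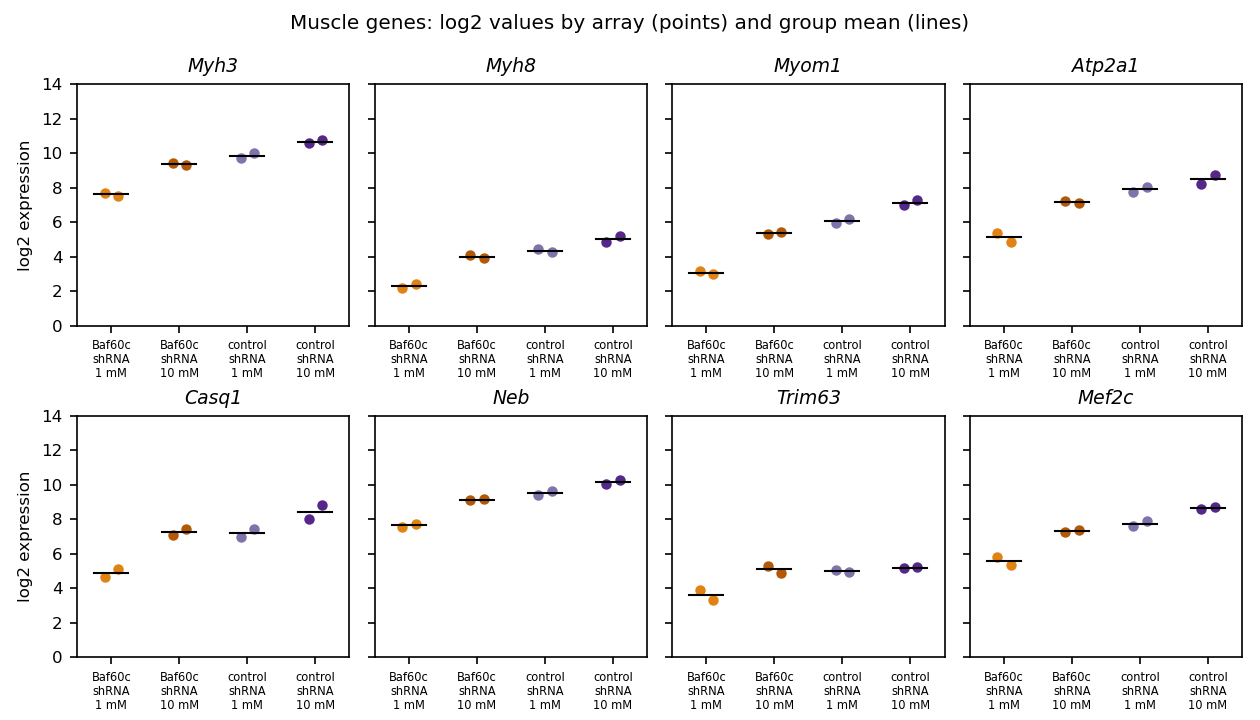
Log2 expression on each of the 8 arrays (points) and group means (lines) for 8 muscle genes. In each, knockdown cells were higher at 10 mM than at 1 mM without overlap, and their 1 mM arrays lay below all control arrays, as for Myh3 at 7.72 and 7.55.

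The single genes with the smallest unadjusted p for the difference included several factors of signalling and muscle. Fgf5 went from 2.27 and 1.92 to 4.60 and 4.68 in knockdown cells and from 2.71 and 2.80 to 3.43 and 2.96 in control cells (difference 2.11 ± 0.28, adjusted p = 0.235). Cd200, an immune checkpoint glycoprotein, went from 3.01 and 2.88 to 6.99 and 6.97, against 4.19 and 4.34 and then 6.06 and 6.70 (1.91 ± 0.30). Kcnn3 in control cells started at 5.84 and 6.36, so that its groups differed at 1 mM and met at 10 mM (1.89 ± 0.27). Vgll2, a partner of TEAD factors in muscle, rose by 1.64 ± 0.13 in knockdown cells and was not called in control cells (difference 1.23 ± 0.19). In the other direction, Best3, a chloride channel, was at 2.25 and 2.53 and then 2.36 and 2.41 in knockdown cells and rose from 2.18 and 2.22 to 4.05 and 4.58 in control cells. Trp53i11 changed by 0.09 in knockdown cells, which was not called, and rose by 2.31 in control cells (difference -2.22 ± 0.35). Iqgap3, a scaffold of dividing cells, rose in both, by 1.38 ± 0.12 and 2.81. The arrays of Fgf5 and Best3 at 1 mM in both cells and those of Best3 in knockdown cells at 10 mM lay under 3, so the sizes of these differences are not firmly measured. All of these differences missed the adjusted threshold.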

How the data were processed

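RNA from 8 C2C12 myotube cultures was read on Affymetrix Mouse Gene ST 2.1 arrays, 1 array per sample. The deposited values are log2 expression values per probe set, which the authors made with RMA in affy, per the submitters' processing notes; RMA corrects background, quantile-normalizes the arrays together and summarises probes, so a shift shared by most genes of an array is removed. Versions and the annotation build are not given in the sources used here.

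Of 41345 probe sets, 23521 were assigned to 1 gene in the platform annotation, 1814 to several (not used, apart from the knockdown target) and 16010 to none. Of the first, 23328 had an identifier matched in the RefSeq gene table, which changed 0 symbols. Each gene was read from its brightest probe set, by the mean of the 8 arrays (1082 of 22180 genes had more than 1), and genes with a mean under the 40th percentile (log2 2.30) were left out. One mean per group was fitted over all 8 arrays with limma 3.58.1 in R 4.3.3 (lmFit, eBayes, 4 residual degrees of freedom), with two-sided tests and Benjamini-Hochberg adjustment over the 13308 genes; the difference between responses was a contrast of the same fit. The procedure was tested on simulated data. The design calls the replicates independent, but the files name no separate cultures or days, and 2 arrays per group limit the precision; without probe-level detection values, a log2 value under 3 was taken as dim.

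Named genes were members marked for each list, up to 5 called members with the largest change and up to 3 against the list's direction, up to 20 largest changes each way over all genes (predicted genes left out), the 10 smallest p each way for the difference and genes called in opposite directions; Polr1c was added after its values were seen. The genes and lists were chosen with earlier results of these data known. Alternatives were the filter, centring, quantile normalization, variance trend, probe set averaging, the replicate number as a block, the 4 knockdown arrays alone, a test against 1.5-fold and each array left out. Promoter windows came from the RefSeq table for GRCm38.p6 and were searched on both strands.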

Additional observations from a re-analysis of the deposited data

Results flagged for a closer look

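The 6 genes below were called in opposite directions in knockdown and control cells, with both groups of arrays apart in each. The difference between their responses missed the adjusted threshold in limma in every case (adjusted p from 0.235 to 0.4), and no value of the 6 was above 5.45. The knockdown call of Slc41a3 was lost without any 1 of the 4 knockdown arrays, and those of Macrod1, 1810014B01Rik, B330016D10Rik and Myh7b without 3 of the 4, taken singly. Myh7b, a slow type myosin gene, went from 2.78 and 2.86 to 2.06 and 2.43 in knockdown cells and from 2.58 and 2.49 to 3.30 and 3.30 in control cells, a difference of -1.34. Rabggtb, which encodes a subunit of the enzyme that prenylates Rab proteins, went from 4.77 and 5.01 to 3.63 and 3.82, against 4.08 and 4.0 and then 4.50 and 4.50 (-1.63). Macrod1, which removes ADP-ribose from proteins, went from 5.07 and 5.0 to 4.23 and 4.41, against 4.30 and 4.56 and then 5.19 and 5.45 (-1.61). In these 3 genes the knockdown arrays lay above the control arrays at 1 mM and below them at 10 mM.

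In the other 3 the order was the reverse. Slc41a3, a magnesium transporter gene, went from 4.14 and 4.29 to 4.69 and 4.79 in knockdown cells and from 5.08 and 5.10 to 4.29 and 4.48 in control cells (1.23). The uncharacterised 1810014B01Rik went from 3.83 and 4.0 to 4.53 and 4.50, against 4.74 and 4.68 and then 4.37 and 4.09 (1.07). B330016D10Rik went from 3.61 and 3.42 to 4.01 and 4.14, against 4.42 and 4.52 and then 3.92 and 3.82 (1.17).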

How the results depend on the processing

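The count of called genes in knockdown cells (3342) was 860 in a test against a 1.5-fold change (556 higher, 304 lower) and 1903 to 3185 with any 1 array left out, the lowest without knockdown replicate 1 at 10 mM (1157 to 1859 higher, 746 to 1326 lower). The count in control cells (3372) was 2046 to 3251 with any 1 array left out. The difference between responses had 0 calls in limma (1049 genes at an unadjusted p under 0.05) and with no filter, the 60th percentile filter, centring, quantile normalization, the mean of probe sets and the replicate block, while a variance trend with a robust fit called 1 gene, Thbs1; the 1.5-fold test and the fit of 4 arrays were run for the knockdown response alone. With any 1 array left out the difference had 0 calls, with 763 to 1219 genes at that unadjusted p. Centring each array on its median gave 46.9% higher calls in knockdown cells against 57.9%, and 46.4% against 52.2% in control cells. The replicate numbers did not pair the samples (correlations of same-numbered deviations between -0.038 and 0.108), and with the number as a block 3102, 3111 and 0 genes were called for the knockdown response, the control response and the difference. Of 370 named genes that were called, 284 were also called with each of the 4 knockdown arrays left out in turn and 183 under every setting run. Among named genes called in the main fit or in the setting compared with it, Ank1 alone changed sign. It was at 0.30 (limma adjusted p = 0.217) with the mean of its probe sets, since these move in opposite directions. Sign changes of named genes called in neither fit were not counted. With the median centring the medians of the Myc network, small heat shock protein, AKT and mTOR, immediate early and circadian, and bone marker lists changed sign. With 2 arrays per group, a change in 1 gene had a median 95% confidence half-width of 0.406.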

Other observations

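Proteasome subunits had 1 rise and 1 fall among 35 (median 0.13). Both counts were below the shares over all tested genes, of which 14.5% rose and 10.6% fell. Psma5 fell at dim signal (3.52 and 3.14, then 1.77 and 2.46), and Psmc3 rose from 7.70 and 7.60 to 8.23 and 8.28. Lysosome and autophagy genes had 2 rises and 7 falls among 34. The autophagy receptor Sqstm1 fell by 1.09 ± 0.13, the cholesterol exporter gene Npc1 by 1.15 ± 0.19 and the calcium channel gene Mcoln1 by 0.96 ± 0.13, while the mitophagy receptor Bnip3 rose by 1.03 ± 0.16 and Ctsb, a protease gene, was not called (11.67 and 11.61, then 11.71 and 11.58). The falls numbered 4 without knockdown replicate 2 at 1 mM or either replicate at 10 mM, and the 2 single proteasome calls were not both kept with any 1 knockdown array left out.

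Of 34 immediate early and circadian genes 4 rose and 7 fell, with 4 falls without knockdown replicate 1 at 1 mM and 3 without replicate 1 at 10 mM. Over all tested genes 14.5% rose and 10.6% fell. Fos and Per1 were not called (-0.06 ± 0.16 and 0.23 ± 0.17), and the clock repressor Ciart fell from 6.55 and 6.77 to 4.61 and 5.33. Among 23 BAF complex genes 2 rose and 1 fell, and no gene rose without knockdown replicate 1 at 1 mM or either replicate at 10 mM. Phf10, an accessory subunit gene, went from 9.85 and 10.02 to 8.95 and 8.75, and the ATPase genes Smarca2 and Smarca4 were at 0.67 ± 0.18 (called, but not without knockdown replicate 1 at 1 mM, either array at 10 mM of either cells or with arrays centred) and 0.15 ± 0.13 (not called). The paralogs of the knockdown target, Smarcd1 and Smarcd2, read 6.49 and 6.58 and then 6.77 and 6.25, and 4.53 and 4.55 and then 4.19 and 4.32, and neither was called. The rises and the falls of BAF complex genes were below the shares over all tested genes.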
